A study of Mus musculus with 16 samples.

Results

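Serial passage of wild-type (WT) primary mouse embryonic fibroblasts (MEFs) was examined by comparing miRNA levels at passage 7 (P7) with those at passage 3 (P3). The comparison used the 8 arrays of WT cells among the 16 arrays of the study, 4 at P7 and 4 at P3, and the other 8 arrays held MEFs lacking Ercc1, a subunit of a DNA repair endonuclease. All MEFs came from embryos of mixed FVB/n and C57Bl/6 background, and each passage was sampled in 20% O2, the level of standard culture, and in 3% O2, with 2 replicates in each of the 4 WT groups. Primary MEFs are a mixed population grown out of whole embryos, and the methods name 2 independent cell lines. The labels do not say whether a replicate number stands for the same line in every group. Total RNA was labelled with Cy3 and hybridized to single-colour Agilent arrays that carry probes for 611 mouse miRNAs. Of these, 277 were above background on at least 1 WT array, 88 on all 8 and 334 on none. Testing was limited to the 219 seen above background in both replicates of some WT group, which left out 58 seen only on scattered arrays.

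MiRNAs are short RNAs, cut from hairpin transcripts, that guide Argonaute proteins to messenger RNAs and lower their translation and stability. Target choice rests mainly on the seed, bases 2 to 8 of the mature strand, so that miRNAs with a common seed form a family. Primary MEFs slow their growth over a limited number of passages, sooner at atmospheric than at low oxygen, and the p16, Arf and p53 pathways are known to act in that arrest. The let-7 and miR-15/16 families are known for restraining proliferation, the miR-34 family is induced by p53, and the miR-10 and miR-196 genes lie within the Hox clusters that record position along the body axis.

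The mature sequences of the 5 miRNAs that passed the test, all lower at P7, are given first, and miR-10b, miR-196a and miR-196b are shown beside them because they lie in the Hox clusters with miR-10a. They are written 5′ to 3′ from RefSeq (mouse build GRCm38.p6), with the seed in capitals.
miR-10a: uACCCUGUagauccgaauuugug
miR-10b: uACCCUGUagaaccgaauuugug
miR-196a: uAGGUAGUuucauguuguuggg
miR-196b: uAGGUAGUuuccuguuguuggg
miR-675-3p: cUGUAUGCccuaaccgcucagu
miR-218: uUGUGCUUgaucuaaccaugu
miR-450a-5p: uUUUGCGAuguguuccuaauau
miR-129-3p: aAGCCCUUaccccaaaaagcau
The mature strand of miR-10a lies at chr11:96317186-96317208 on the plus strand, inside the span of Hoxb3. MiR-675-3p is at chr7:142577078-142577099 on the minus strand, inside the span of H19, an imprinted non-coding RNA gene. MiR-218 has 2 copies, at chr11:35616840-35616860 inside the span of Slit3 and at chr5:48223966-48223986 inside the span of Slit2. MiR-450a-5p also has 2 copies, at chrX:53048206-53048227 and chrX:53048339-53048360, beside miR-322 and miR-503 on the X chromosome. MiR-129-3p was matched to the 3p strand of the copy at chr2:94241376-94241397, inside the span of the non-coding gene Mir670hg.

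The next set shows the 5 miRNAs higher at P7 with the smallest p, together with miR-494 and miR-1896, which had large positive differences and are taken up again below.
miR-140*: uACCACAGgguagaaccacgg
miR-222: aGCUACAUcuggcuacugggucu
miR-1224: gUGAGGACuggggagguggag
miR-188-5p: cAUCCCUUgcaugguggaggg
miR-680: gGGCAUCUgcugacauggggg
miR-494: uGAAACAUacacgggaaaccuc
miR-1896: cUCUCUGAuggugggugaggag
Guanine makes up 61.9% of the bases of miR-1224, 47.6% of miR-680, 45.5% of miR-1896 and 38.1% of miR-188-5p, against a median of 23.8% over the 188 tested miRNAs with a matched sequence. MiR-140*, miR-222 and miR-494 are at 28.6%, 26.1% and 18.2%.

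The arrays differed in brightness and detection more between replicates than between passages. A replicate number was also a slide and a scan, and on both slides every P3 array lay in the first row and every P7 array in the second, so that passage and slide row cannot be told apart. The mean log2 unscaled signal of 57 miRNAs above background on all 16 arrays was 9.34, 9.31, 6.98 and 8.65 on the P3 arrays, in the order 20% O2 replicate 1, 3% O2 replicate 1, 20% O2 replicate 2 and 3% O2 replicate 2. On the P7 arrays it was 9.29, 8.94, 7.08 and 7.99 in that order, which is kept for all values below. The passages overlapped and their means, 8.57 ± 1.11 and 8.32 ± 1.00 (SD, n = 4 each), did not differ detectably by an exact permutation test (two-sided p = 0.771, the smallest possible being 0.0286). Between 132 and 250 miRNAs were above background at P3 and between 128 and 241 at P7 (206.5 ± 53.5 and 190.75 ± 49.2, SD, n = 4 each, exact permutation test, two-sided p = 0.686). Scaling made the mean over the 57 miRNAs equal on every array, so that a level is relative to them, and signals under 2.82 were set to this floor, 1.50 on the log2 scale. As these are bulk RNA samples, a lower level in each cell and a smaller share of cells with the miRNA cannot be told apart.

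**Figure D1:**
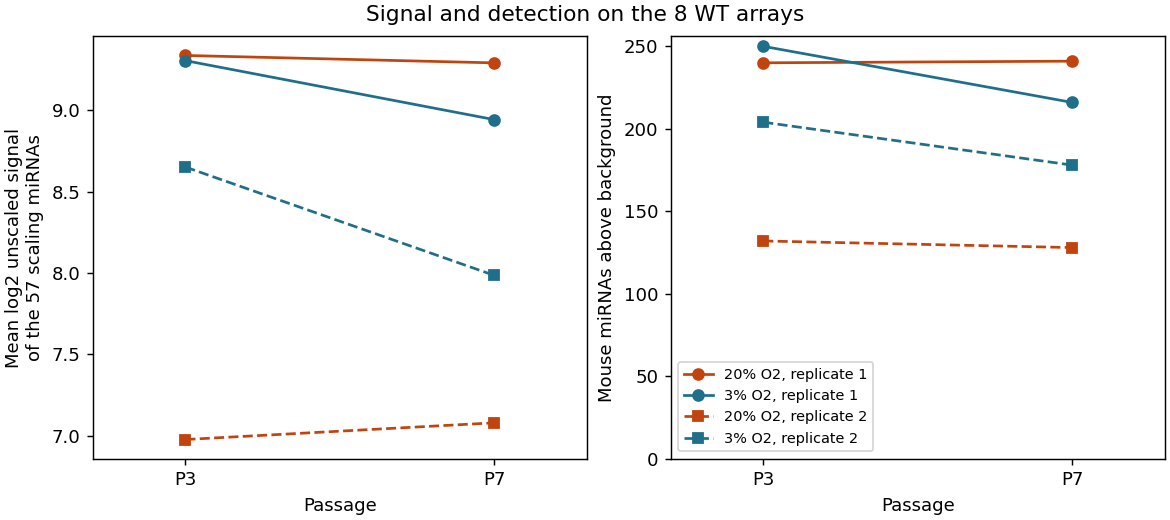
Mean log2 unscaled signal of the 57 scaling miRNAs (left) and number of mouse miRNAs above background (right) at P3 and P7, 1 point per WT array, with lines joining the arrays of the same oxygen level and replicate number. The replicate 2 arrays (squares, dashed) lie below those of replicate 1 in signal, and the 20% O2 arrays of replicate 2 have the fewest miRNAs above background, 132 and 128.

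The P7 array of 20% O2 replicate 1 stood apart from the other P7 arrays. Across the 219 tested miRNAs it correlated at r = 0.98 with the P3 array of the same oxygen level and replicate. Only 18 miRNAs differed by more than 2-fold within this pair, against 50 in 3% O2 replicate 1, 165 in 20% O2 replicate 2 and 135 in 3% O2 replicate 2. The passage differences of the other 3 pairs correlated with each other at r = 0.71 to 0.92, and with those of the 20% O2 pair of replicate 1 at r = 0.18 to 0.23 (219 miRNAs, which share their arrays and are not independent). For this reason, calls without this pair (21.9% of the 219 lower and 8.68% higher) or without its P7 array (34.7% and 19.6%) are also given. They stand beside those with all 8 arrays for the main groups and miRNAs. Leaving out the pair was chosen after seeing the data, and in both cases the lone array of a group is assumed to vary like the others.

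In the comparison of all 8 arrays, 5 miRNAs fell with passage and none rose. By limma with oxygen level and replicate number as blocks, miR-10a, miR-675-3p, miR-129-3p, miR-218 and miR-450a-5p passed a Benjamini-Hochberg adjusted p of 0.05, 2.28% of the 219 tested, and 0.0% passed in the higher direction. Each of the 5 was above background on only 1 or 2 P7 arrays. MiR-10a, miR-129-3p and miR-450a-5p entered the test only through P3 groups, where they are high. What this does to p was not tested. Among the 88 miRNAs above background on all 8 WT arrays, none was called. At an unadjusted p of 0.05, 69 of the 219 were lower (31.5%) and 28 higher (12.8%). In all 4 pairs of the same oxygen level and replicate, 60 miRNAs were lower at P7 (27.4%) and 30 higher (13.7%). All P7 arrays lay below all P3 arrays for 24 miRNAs (11.0%) and above them for 10 (4.57%). Of the 219, 132 had a negative and 87 a positive fitted change. The median change over the 219 was -0.43 on the log2 scale, which is the shift against which a single change or a group can be read. It was -0.61 without scaling, lay between -0.41 and -0.06 under the other scalings of the processed signal, and was 0.05 after normexp background correction.

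MiR-10a, which lies among the Hoxb genes, showed the largest decrease. Its log2 scaled signal was 5.56, 5.47, 6.51 and 5.70 at P3 and 2.99, 2.35, 1.50 and 1.51 at P7. All P7 arrays lay well under the lowest P3 array, and only 1 of them was above background, while all 4 P3 arrays were. The fitted change, with undetected values at or near the floor, was -3.72 ± 0.44 (log2, SE, 95% confidence interval -4.75 to -2.70, limma, adjusted p = 0.00976). With each P7 array at its own value or at its dimmest signal above background, whichever was higher, miR-10a was at least 8.46-fold lower. Its difference in the 20% O2 pair of replicate 1, -2.57, was the most negative of the 219 in that pair.

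MiR-218, which is co-transcribed with the axon guidance genes Slit2 and Slit3, was among the most even at P3. It measured 6.17, 6.04, 5.97 and 5.68 at P3 and 4.20, 4.63, 1.50 and 2.51 at P7. The groups did not overlap, and the decrease was larger on the replicate 2 arrays. The change was -2.76 ± 0.51 (log2, SE, limma, adjusted p = 0.0388). MiR-218 was above background on 2 P7 arrays and, bounded in the same way, at least 5.05-fold lower.

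MiR-675-3p is processed from H19, a maternally expressed RNA that is abundant in embryonic tissue. Its levels were 3.87, 4.12, 5.08 and 4.50 at P3 and 1.50, 2.44, 1.50 and 2.79 at P7, with no overlap. The change was -2.34 ± 0.39 (log2, SE, limma, adjusted p = 0.0382). Both 20% O2 arrays at P7 were at the floor and only 2 P7 arrays were above background, which bounds the decrease of miR-675-3p at 3.78-fold or more.

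MiR-450a-5p, from the X-linked miR-322/miR-503 cluster, and miR-129-3p, best known from brain, were dimmer. MiR-450a-5p had log2 levels of 5.001, 5.13, 4.41 and 4.03 at P3 and 3.86, 3.64, 1.50 and 1.50 at P7. MiR-129-3p had 3.41, 3.67, 3.19 and 3.48 at P3 and 1.50, 2.37, 1.53 and 1.50 at P7. Neither overlapped between passages, but each was above background on only 3 P3 arrays, and the replicate 2 arrays of miR-450a-5p and 3 P7 arrays of miR-129-3p were at or within 0.05 of the floor. Their changes were -2.02 ± 0.38 and -1.71 ± 0.29 (log2, SE, limma, adjusted p = 0.0388 and 0.0382). Computed as for miR-10a, the decreases came to 2.59-fold for miR-450a-5p and 2.11-fold for miR-129-3p. These are not strict lower limits, as a P3 value not above background entered each at its measured size.

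**Figure D2:**
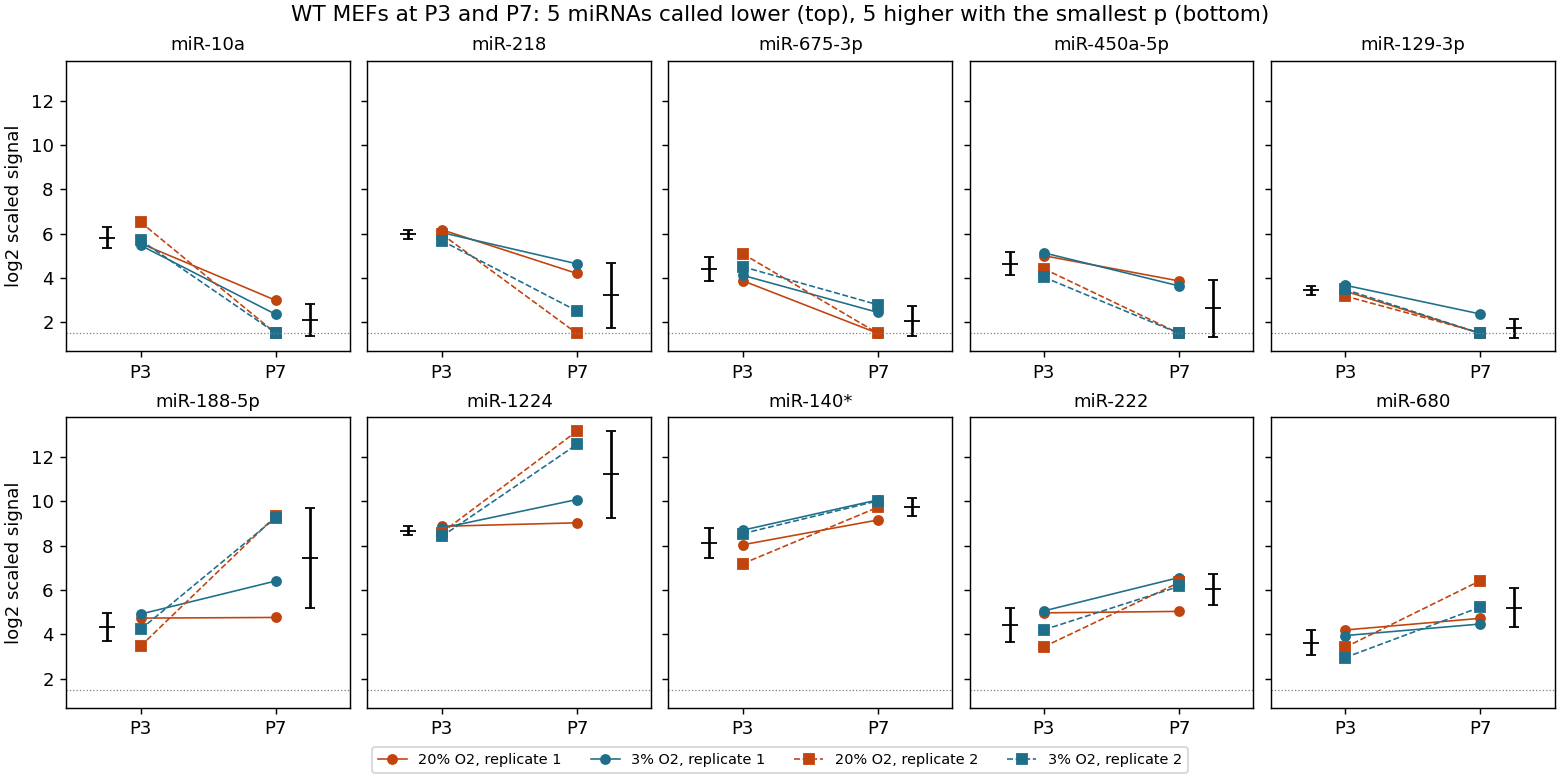
Log2 scaled signal at P3 and P7 of the 5 miRNAs called lower (top row) and the 5 higher miRNAs with the smallest p (bottom row), with lines joining arrays of the same oxygen level and replicate, horizontal marks with bars for the mean ± SD of 4 arrays and a dotted line at the floor, 1.50. All 4 lines fall for miR-10a, from 5.47 to 6.51 at P3 to 2.99 or less at P7, whereas for miR-1224 and miR-188-5p P7 lies far above P3 in replicate 2 and close to it in the 20% O2 pair of replicate 1.

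The calls of these 5 depended on single arrays, while the sizes of their changes varied less when 1 array was left out. Leaving out each array in turn, miR-10a lay between -4.01 and -3.39, miR-218 between -3.12 and -2.30, miR-675-3p between -2.53 and -1.995, miR-450a-5p between -2.26 and -1.78, and miR-129-3p between -1.87 and -1.59 (log2). All 5 were still called without the 20% O2 pair of replicate 1, where 48 miRNAs were lower and 19 higher (limma). They were also called without its P7 array alone, where 76 were lower and 43 higher. The fit without the pair is no separate support for the 5, as the pair was left out after its small differences were seen. With a term for passage by replicate, 85 were lower and 42 higher, again including the 5. That term takes the disagreement between the replicates out of the spread and leaves the 2 oxygen levels as the only replicates. With the oxygen levels averaged per replicate instead, 1 was lower and 2 higher, and 1 of the 5 kept its call. None of the 5 kept its call when the P3 array of 3% O2 replicate 1, either replicate 2 array at P3, or the P7 array of 3% O2 replicate 2 was left out. MiR-10a kept its direction in all 33 alternatives, with changes from -4.60 to -0.74 and adjusted p from 2.29e-06 to 0.515 (limma or the methods' t-test). Over the same alternatives the sizes of the others varied widely. The changes ran from -3.82 to -0.67 for miR-218 and from -3.09 to -0.21 for miR-675-3p. They ran from -2.93 to -0.24 for miR-450a-5p and from -1.87 to 0.85, with a change of sign, for miR-129-3p.

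Among miRNAs higher at P7, none passed the adjusted threshold with all 8 arrays. Without the 20% O2 pair of replicate 1 the 5 with the smallest p passed it, with adjusted p of 0.0356 for miR-140*, 0.0344 for miR-222, miR-1224 and miR-188-5p, and 0.0487 for miR-680 (limma). This is no separate support, as that pair was left out after its small differences were seen. The 5 were also picked by p in the same data. MiR-140*, the 3p strand of the cartilage-associated miR-140 in Wwp2, came closest with all 8 arrays. It measured 8.04, 8.70, 7.19 and 8.54 at P3 and 9.16, 10.06, 9.73 and 10.02 at P7. All P7 arrays lay above all P3 arrays and every pair differed in that direction, by a fitted 1.63 ± 0.33 (log2, SE), or 3.09-fold (limma, adjusted p = 0.0547).

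MiR-222, known for targeting the cell cycle inhibitor p27, was 4.97, 5.05, 3.44 and 4.20 at P3 and 5.03, 6.56, 6.34 and 6.16 at P7. The groups overlapped slightly, as the P7 array of 20% O2 replicate 1 (5.03) lay under the P3 array of 3% O2 replicate 1 (5.05). The 20% O2 pair of replicate 1 differed little, and the change was 1.61 ± 0.47 (log2, SE, limma, adjusted p = 0.086). Its size is limited by the P3 value in 20% O2 replicate 2, 3.44, which lay under the dimmest signal above background on that array. MiR-221, transcribed beside miR-222 and with its seed, measured -0.57 ± 0.35 (log2, SE, limma, adjusted p = 0.216), with the opposite sign.

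MiR-1224, miR-188-5p and miR-680 had their largest differences on the replicate 2 slide. MiR-1224 measured 8.87, 8.79, 8.58 and 8.41 at P3 and 9.03, 10.08, 13.16 and 12.57 at P7. MiR-188-5p, from an intron of Clcn5, had 4.73, 4.91, 3.47 and 4.22 at P3 and 4.76, 6.41, 9.34 and 9.26 at P7. MiR-680, from an early sequencing set with several matching genome copies, had 4.19, 3.94, 3.41 and 2.95 at P3 and 4.72, 4.46, 6.42 and 5.22 at P7. In each of the 3, replicate 2 held the lowest P3 and the highest P7 value, and the 20% O2 pair of replicate 1 differed by 0.53 or less. Their changes were 2.55 ± 0.75, 3.11 ± 0.93 and 1.58 ± 0.49 (log2, SE, limma, adjusted p = 0.086 for each).

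The 10 miRNAs with the brightest signal at P3 included several that are abundant in fibroblasts generally. They were miR-21, miR-720, miR-125b-5p, miR-199a-3p, miR-22, miR-199a-5p, let-7i, let-7a, miR-199b* and let-7c. Brightness also reflects the probe and gives no order of abundance. None passed the adjusted threshold, and their changes ran from -1.99 for miR-199a-3p to 1.07 for miR-22. MiR-21, an oncogenic and fibrosis-linked miRNA, measured 12.81, 12.44, 13.14 and 13.14 at P3 and 13.25, 12.25, 11.74 and 11.37 at P7, overlapping between passages (-0.73 ± 0.43, log2, SE, limma, adjusted p = 0.203). MiR-22, which is tied to senescence of human fibroblasts, measured 11.37, 11.24, 11.59 and 11.04 at P3 and 11.59, 12.01, 13.26 and 12.68 at P7. It was higher in all 4 pairs (1.07 ± 0.37, log2, SE, limma, adjusted p = 0.089). MiR-125b-5p, a miRNA of mesenchymal cells, was lower in all 4 pairs with no overlap, at 12.43, 12.34, 12.37 and 12.28 against 11.94, 11.96, 10.34 and 11.23 (-0.99 ± 0.37, log2, SE, limma, adjusted p = 0.0935). MiR-199a-3p, from the opposite strand of a Dnm3 or Dnm2 intron, was 11.79, 11.32, 12.18 and 11.85 at P3 and 12.23, 9.62, 8.67 and 8.65 at P7, so that the P7 array of 20% O2 replicate 1 exceeded every P3 array while the other 3 lay below them (limma, adjusted p = 0.086, and 0.0344 without the 20% O2 pair of replicate 1).

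MiRNAs of the Hox clusters had the most negative median of the groups examined. All 4 tested members, the miR-10 pair and the miR-196 pair shown above, were lower, 1 with an adjusted p under 0.05 and all 4 with an unadjusted p under 0.05 (all tested: 2.28% and 31.5%). All 4 passed adjustment without the 20% O2 pair of replicate 1 and without its P7 array (all tested lower: 21.9% and 34.7%). Their median change was -2.37, against -0.43 over all tested, and it stayed negative under all 9 scaling and background alternatives, between -2.33 and -0.43. MiR-10b, which shares the miR-10a seed and differs from it inside the strand, measured 6.22, 5.66, 6.50 and 5.80 at P3 and 5.79, 3.67, 1.77 and 2.20 at P7. The P7 array of 20% O2 replicate 1 lay within the P3 range, and the other 3 well below it (-2.69 ± 0.69, log2, SE, limma, adjusted p = 0.086). MiR-196b, located among the Hoxa genes, was 4.33, 4.10, 5.54 and 4.61 at P3 and 3.86, 2.33, 2.53 and 1.70 at P7 with no overlap (-2.04 ± 0.46, log2, SE, limma, adjusted p = 0.0667). MiR-196a, with copies beside Hoxb and Hoxc genes, was 5.59, 5.06, 6.06 and 5.56 at P3 and 5.66, 3.19, 3.36 and 2.92 at P7 (-1.78 ± 0.52, log2, SE, limma, adjusted p = 0.086).

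The let-7 family, whose members share the seed GAGGUAG, is shown by 4 of its 9 tested members.
let-7a: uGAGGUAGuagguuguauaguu
let-7f: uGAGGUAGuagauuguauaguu
let-7b: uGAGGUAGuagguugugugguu
miR-98: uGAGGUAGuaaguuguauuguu
All 9 were lower at P7, with a median of -1.60, none passed the adjusted threshold with all 8 arrays and 8 had an unadjusted p under 0.05 (all tested: 31.5%). Adjustment was passed by 7 of the 9 without the 20% O2 pair of replicate 1 (all tested lower: 21.9%). It was passed by 8 (all but let-7b) without the P7 array of that pair or with a term for passage by replicate (all tested lower: 34.7% and 38.8%). Changes ran from -1.98 ± 0.62 for let-7f to -0.30 ± 0.30 for let-7b (log2, SE, limma, adjusted p = 0.086 and 0.416), the member with the most guanine of the 4 shown. The direction of the median was the same under all 9 scaling and background alternatives, between -1.85 and -1.13, while let-7b alone turned to 0.08 with scaling to the 75th percentile over all miRNAs and to 0.13 with quantile scaling. Probes for such near-identical strands may cross-hybridize, so that members are not independent measurements.

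The 4 pairs of the same oxygen level and replicate number did not contribute equally to the let-7 difference. Let-7a measured 10.54, 10.26, 11.06 and 10.68 at P3 and 10.55, 8.98, 7.94 and 8.67 at P7. Let-7f measured 10.27, 9.87, 10.56 and 10.15 at P3 and 10.29, 8.18, 6.87 and 7.57 at P7. In the 20% O2 pair of replicate 1 the family median was 0.01, whereas it was -1.28 in 3% O2 replicate 1, -3.13 in 20% O2 replicate 2 and -2.01 in 3% O2 replicate 2. The summed scaled signal of the family lay between 6863 and 11585 on the P3 arrays and between 2385 and 7797 on the P7 arrays.

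The miR-15/16 family, with the seed AGCAGCA, targets cyclins and Bcl2, and the miR-322/miR-503 cluster on the X chromosome, known from myoblast cell cycle exit, overlaps it through miR-322.
miR-15b: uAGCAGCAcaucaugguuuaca
miR-16: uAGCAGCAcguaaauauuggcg
miR-322: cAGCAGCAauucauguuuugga
miR-497: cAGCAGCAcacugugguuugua
miR-503: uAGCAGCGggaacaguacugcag
Of 6 members of the family, 5 were lower at P7, with a median of -1.36, no call and 4 at an unadjusted p under 0.05 (all tested: 31.5%). Of 8 tested members of the cluster, all 8 were lower, with a median of -1.40, 1 called (miR-450a-5p), 5 at an unadjusted p under 0.05 and 5 lower in all 4 pairs (all tested: 2.28%, 31.5% and 27.4%). Without the 20% O2 pair of replicate 1, 3 of the 6 and 3 of the 8 passed adjustment (all tested lower: 21.9%). Without the P7 array of that pair, 4 of the 6 and 4 of the 8 did (all tested lower: 34.7%). The medians of both kept their sign under the 9 scaling and background alternatives, with -0.07 for the cluster after normexp background correction, where miR-351 turned to 0.13.

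Within these groups miR-322 had the largest change. It measured 7.53, 7.51, 8.21 and 8.59 at P3 and 6.79, 6.07, 3.21 and 5.70 at P7, with no overlap (-2.52 ± 0.73, log2, SE, limma, adjusted p = 0.086). MiR-503 measured 5.60, 5.62, 4.74 and 5.80 at P3 and 3.71, 5.10, 1.94 and 5.09 at P7, with the 20% O2 arrays the lowest at P7 (-1.48 ± 0.50, log2, SE, limma, adjusted p = 0.086). MiR-15b and miR-16 measured -1.91 ± 0.65 and -1.40 ± 0.53 (log2, SE, limma, adjusted p = 0.086 and 0.0949), lower in all 4 pairs each. MiR-15a and miR-195 measured -1.29 ± 0.52 and -1.33 ± 0.64 (log2, SE, limma, adjusted p = 0.103 and 0.135). MiR-542-3p and miR-542-5p of the cluster measured -1.47 ± 0.37 and -1.33 ± 0.36 (log2, SE, limma, adjusted p = 0.086 for both). MiR-497, with the family seed, was the exception at 0.06 ± 0.42 (log2, SE, limma, adjusted p = 0.906), and is described again with oxygen and genotype.

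Among miRNAs described as p53-responsive, the miR-34 members were lower at P7 rather than higher, and none passed the adjusted threshold with all 8 arrays. Of 7 tested members of this group, 6 were lower, with a median of -1.09, and 4 lower and 1 higher at an unadjusted p under 0.05 (all tested: 31.5% and 12.8%). Without the 20% O2 pair of replicate 1, 1 of the 7 passed adjustment, miR-34c (adjusted p = 0.043, limma), or 14.3% against 21.9% of all tested lower. Without the P7 array of that pair, 5 were called lower and 1, miR-145, higher (all tested: 34.7% and 19.6%). MiR-34a measured 9.33, 8.52, 9.68 and 9.10 at P3 and 9.13, 8.53, 7.02 and 7.62 at P7, little different within replicate 1 and lower in replicate 2 (-1.08 ± 0.49, log2, SE, limma, adjusted p = 0.12). MiR-34b-5p and miR-34c, from 1 transcript, were lower in all 4 pairs (-1.23 ± 0.42 and -1.80 ± 0.58, log2, SE, limma, adjusted p = 0.086 for both). MiR-143 and miR-145, which are made from a common transcript of smooth muscle and fibroblasts, had opposite signs, -1.002 ± 0.49 and 0.86 ± 0.36 (log2, SE, limma, adjusted p = 0.137 and 0.109).

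MiRNAs tied to senescence or immortalization gave no common direction. Of 8 tested, 6 were lower and 2 higher, with a median of -0.58 and no call. Without the 20% O2 pair of replicate 1, 2 of the 8 were called lower (all tested lower: 21.9%). Without the P7 array of that pair, 3 were called lower and 2 higher (all tested: 34.7% and 19.6%). Beside miR-22, miR-21 and miR-34a, miR-146b, a damper of inflammatory signalling, measured 4.98, 5.16, 4.47 and 4.56 at P3 and 5.37, 4.23, 1.50 and 1.75 at P7 (-1.58 ± 0.59, log2, SE, limma, adjusted p = 0.0935). MiR-28 measured -1.27 ± 0.43, miR-152 -0.33 ± 0.31 and miR-181a 0.54 ± 0.38 (log2, SE, limma, adjusted p = 0.086, 0.385 and 0.263). The miR-29 family, which represses collagens and was linked to MEF senescence through B-Myb, was nearly level. MiR-29a, at 10.35, 10.12, 10.06 and 9.99 against 10.80, 10.49, 10.79 and 10.37, was higher in all 4 pairs with no overlap, but by 0.49 ± 0.27 (log2, SE, limma, adjusted p = 0.18, 95% confidence interval -0.15 to 1.12). MiR-29c followed it at 0.43 ± 0.27 and miR-29b measured -0.43 ± 0.36 (log2, SE, limma, adjusted p = 0.215 and 0.334).

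Other clusters were examined in the same way. The proliferative miR-17-92 cluster with its paralogs had a median of -0.63 over 10 tested members, 9 of them lower, and the miR-125 and miR-99/100 families one of -0.75 over 6. The imprinted Dlk1-Dio3 cluster, expressed from the maternal allele, had 41 tested members, 25 lower and 16 higher, with 14 and 3 at an unadjusted p under 0.05 (all tested: 31.5% and 12.8%), no call and a median of -0.31, close to that of all miRNAs, with a sign that turned under 3 of the 9 scaling and background alternatives. Its member miR-494 had the largest positive change of all tested miRNAs, 3.28 ± 1.04 (log2, SE, limma, adjusted p = 0.086). MiR-494 measured 9.11, 9.18, 6.45 and 8.13 at P3 and 8.73, 11.10, 13.23 and 12.92 at P7, with 20% O2 replicate 1 again the pair that did not follow, and an adjusted p of 0.0344 without that pair. In the other direction, miR-26b, a miRNA in an intron of Ctdsp1, had 7.70, 7.27, 7.38 and 6.90 at P3 and 7.60, 5.90, 2.51 and 4.07 at P7 (-2.29 ± 0.76, log2, SE, limma, adjusted p = 0.086, and 0.0344 without that pair). MiR-30b was similar at -1.92 ± 0.68 (adjusted p = 0.0913), although the miR-30 family as a whole had a median of -0.09, whose sign turned under 6 of the 9 scaling and background alternatives.

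**Figure D3:**
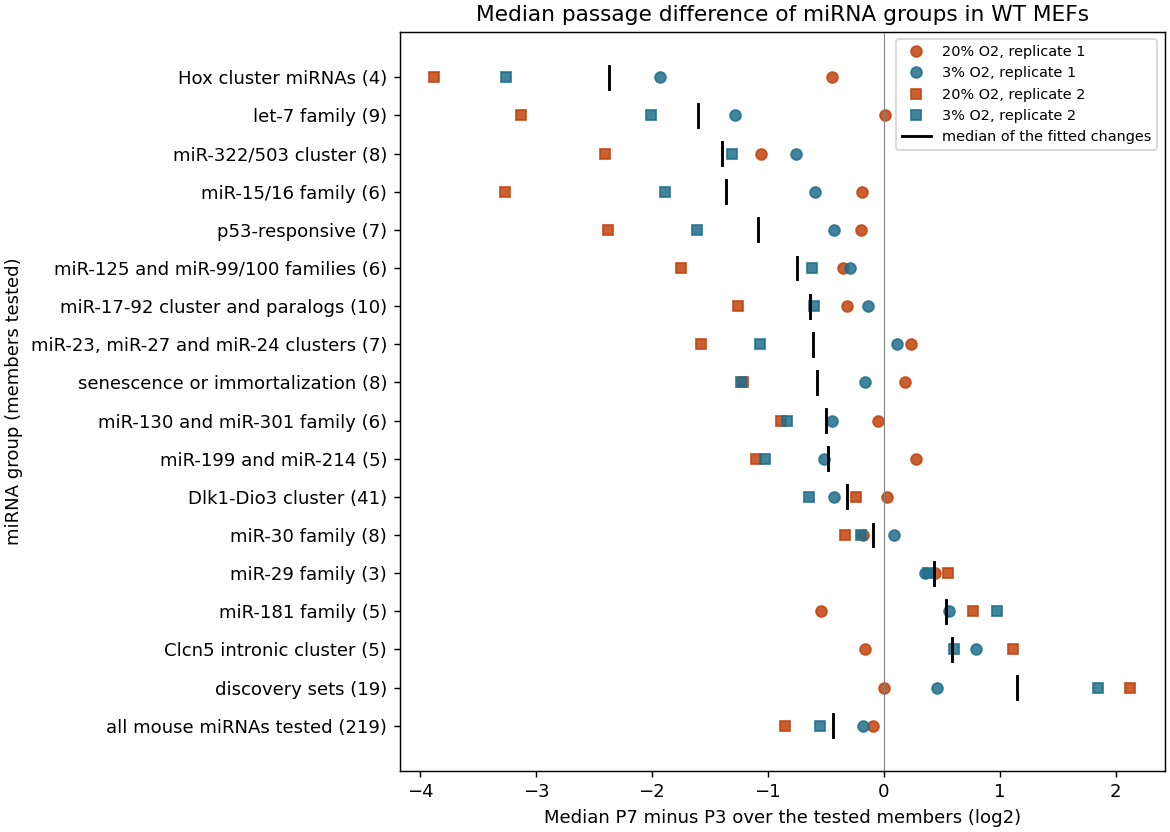
Median P7 minus P3 difference (log2 scaled signal) of the tested members of 17 miRNA groups and of all 219 tested miRNAs, with circles for the pairs of replicate 1, squares for those of replicate 2, and a black bar for the median of the fitted changes. The Hox, let-7, miR-322/miR-503 and miR-15/16 groups lie left of all tested miRNAs (-0.43) and the discovery sets right of them, and for the Hox and let-7 groups the 20% O2 pair of replicate 1 lies nearest 0.

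A group of high-numbered miRNAs named in early sequencing sets lay on the higher side. Of 68 such miRNAs on the array 19 were tested, of which 18 were higher and 1 lower, with none called, 9 at an unadjusted p under 0.05 (all tested: 12.8%) and a median of 1.15. Without the 20% O2 pair of replicate 1, 7 of the 19 were called higher (36.8%, against 8.68% of all tested). Without the P7 array of that pair, 14 were (73.7%, against 19.6%). The median kept its sign under the 9 scaling and background alternatives, between 0.39 and 1.52. By pair it was 0.00 in 20% O2 replicate 1, 0.46 in 3% O2 replicate 1, 2.12 in 20% O2 replicate 2 and 1.85 in 3% O2 replicate 2. MiR-1896 was above background on no P3 array and on 3 P7 arrays, with 1.93, 1.67, 1.50 and 1.50 at P3 and 2.21, 2.40, 5.23 and 4.57 at P7. With each P3 array at its own value or at its lowest signal above background, whichever was higher, it was 2.44-fold higher at P7 (limma, adjusted p = 0.086). This is not a strict lower limit, as a P7 value not above background entered at its measured size.

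Guanine content and the passage difference moved together across miRNAs. Over the 188 miRNAs with a matched sequence, the fitted change correlated with the share of guanine at Pearson r = 0.49 (Spearman rho 0.40) and with that of guanine and cytosine at r = 0.54 (rho 0.51), as a description over miRNAs that share arrays. Among the 43 miRNAs with guanine at 33.3% of bases or more, 31 were higher at P7 and the median change was 0.74. Among the 51 with 18.2% or less, 10 were higher and the median was -0.94. The correlation with guanine was r = 0.19 in 20% O2 replicate 1, 0.30 in 3% O2 replicate 1, 0.51 in 20% O2 replicate 2 and 0.47 in 3% O2 replicate 2. At P3 the level itself had r = -0.06 with guanine and -0.23 with guanine and cytosine. GGG was found in the mature sequence of 48 of the 188 miRNAs, searched on the strand as printed, and in 16 of the 22 that were higher at an unadjusted p under 0.05 against 10 of the 64 that were lower. MiR-494 at 18.2% and miR-140* at 28.6% guanine were among the exceptions, and the let-7 members, at 31.8% to 45.5%, were lower. The part of RNA quality or of hybridization in this was not tested.

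**Figure D4:**
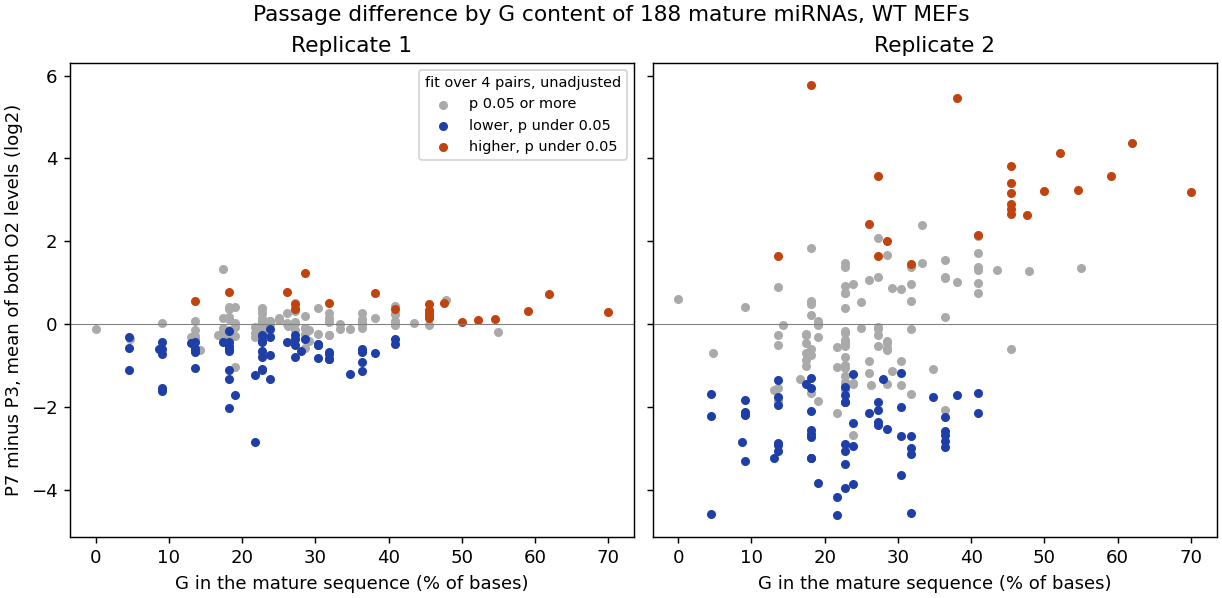
Share of guanine in the mature sequence (x, percent of bases) and P7 minus P3 difference averaged over both oxygen levels (y, log2), 1 point per miRNA for 188 miRNAs, in replicate 1 (left) and replicate 2 (right), coloured by direction among those with an unadjusted p under 0.05 in the fit over all 4 pairs. The spread is wider in replicate 2, where the miRNAs with the most guanine lie mostly above 0.

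The size of the passage difference separated the replicates. The SD of the differences over 219 miRNAs was 0.56 in 20% O2 and 0.82 in 3% O2 for replicate 1, and 2.41 and 1.74 for replicate 2. A term for passage by replicate, added after this was seen, called 56 miRNAs (25.6%, limma, adjusted p under 0.05), 22 with a more positive and 34 with a more negative difference in replicate 2. MiR-188-5p was one of them, and its change was 0.76 on slide 1 and 5.45 on slide 2 (limma, adjusted p of the difference = 0.00259). MiR-675-3p and miR-129-3p did not pass this test, with changes of -2.02 and -2.65, and -1.60 and -1.82, on the slides (limma, adjusted p of the difference = 0.479 and 0.766). P7 values at or near the floor on both slides limit the sizes for these miRNAs. The other called miRNAs changed on slides 1 and 2 by -2.84 and -4.60 (miR-10a), -1.69 and -3.82 (miR-218) and -1.32 and -2.72 (miR-450a-5p). Taken alone, slide 1 gave no call (14 at an unadjusted p under 0.05, 2 of them higher), and slide 2 gave 93 lower and 45 higher. The 2 oxygen levels served as the only replicates within a slide, and line, slide and scan cannot be told apart in this difference.

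**Figure D5:**
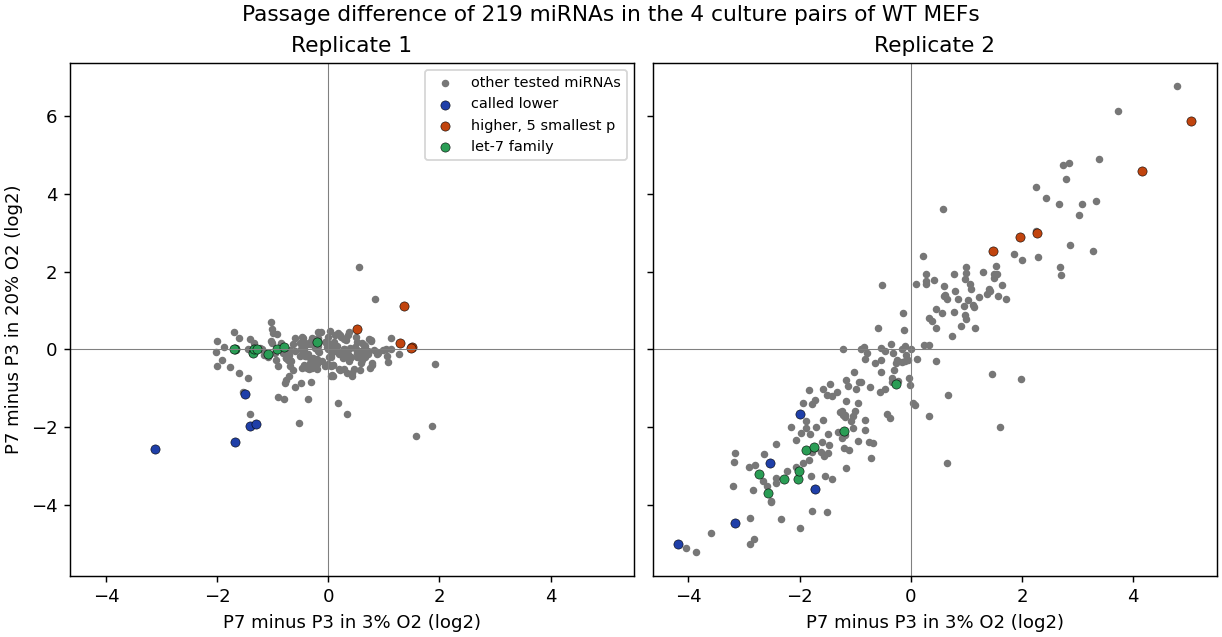
P7 minus P3 difference (log2 scaled signal) of 219 miRNAs in 3% O2 (x) and 20% O2 (y) within replicate 1 (left) and replicate 2 (right), with the 5 called miRNAs, the 5 higher with the smallest p and the let-7 family coloured. In replicate 2 the oxygen levels follow each other (r = 0.92), while in replicate 1 most differences in 20% O2 lie near 0 (r = 0.18) and the 5 called miRNAs are low on both axes.

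The calls within an oxygen level depended on how the spread was estimated. With the spread pooled over all 8 arrays, 18 miRNAs in 20% O2 and 19 in 3% O2 had an unadjusted p under 0.05, and 0.0% passed after adjustment in either. Fitted on the 4 arrays of 3% O2 alone, 33 were called lower, including the 5 called with all arrays, and 13 higher, whereas the 4 arrays of 20% O2 alone gave none, with 11 lower and 5 higher at an unadjusted p under 0.05. In the pooled fit for 20% O2 the smallest p belonged to miR-675-3p, miR-10a and miR-218, with changes of -2.98, -3.79 and -3.22 (limma, adjusted p = 0.18, 0.18 and 0.319). In 3% O2 it belonged to miR-10a, miR-129-3p and miR-675-3p, with -3.65, -1.64 and -1.70 (limma, adjusted p = 0.379 for each). Fits on 4 arrays leave fewer residual degrees of freedom than the 4 of the fit over all 8. Without the 20% O2 pair of replicate 1, 20% O2 held 1 array per passage, so no conclusion is drawn from calls within an oxygen level for it.

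The passage change did not differ detectably between the oxygen levels, with no call and 2 miRNAs at an unadjusted p under 0.05. The smallest p were those of miR-455*, with changes of -1.02 in 20% and 1.29 in 3% O2, miR-497, with -0.75 and 0.87, and miR-223, with -2.31 and 0.45 (limma, adjusted p of the difference = 0.998 for each). MiR-210, the miRNA induced by hypoxia through HIF1, gives a check of the oxygen labels. It measured 6.29 and 6.03 at P3 in 20% O2 and 9.44 and 9.71 at P3 in 3% O2. At P7 it was 6.77 and 8.44 in 20% O2 and 9.48 and 9.93 in 3% O2, so that every 3% O2 array exceeded every 20% O2 array. With passage it measured 0.78 ± 0.44 (log2, SE, limma, adjusted p = 0.186).

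The Ercc1-/- arrays, on the same 2 slides and with the passages in the same slide rows, gave a passage change of the same sign for 199 of the 219 miRNAs. No difference between the genotypes passed the adjusted threshold over 235 miRNAs tested in the fit of 16 arrays (0.0%), and 18 had an unadjusted p under 0.05. MiR-497 came closest, at 0.06 in WT and -2.91 in Ercc1-/- MEFs (limma, adjusted p of the difference = 0.0632). Its WT levels were 5.13, 6.08, 5.80 and 6.56 at P3 and 4.80, 7.16, 4.63 and 7.22 at P7, higher in 3% than in 20% O2 in every pair of arrays. MiR-335-5p, in an intron of the imprinted gene Mest, measured 0.54 in WT and -3.20 in Ercc1-/- MEFs, and miR-196b -2.04 and -0.09 (limma, adjusted p of the difference = 0.343 for both). Of the 5 called miRNAs, miR-218 and miR-450a-5p had Ercc1-/- changes of -3.37 and -3.46, while miR-10a, miR-675-3p and miR-129-3p had -1.68, -0.77 and -0.12, without a detectable difference between genotypes (limma, adjusted p from 0.343 to 0.652). The let-7 median was -1.60 in WT and -3.03 in Ercc1-/- MEFs.

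Markers of the labelled cell type were present at both passages. All 26 miRNAs listed as abundant in mesenchymal cells were above background on at least 1 WT array. The list was written with earlier results of these data known. Their summed scaled signal was 26665 to 32821 at P3 and 19017 to 35205 at P7, with a median change of -0.53. None of 7 epithelial markers, miR-200 family members among them, was above background on any WT array. Of 7 muscle markers 1, and of 4 liver and endothelial markers 1, was above background on any WT array, and none was tested. Of 7 blood cell markers 3 were above background on some array, with a summed scaled signal of 38.4 to 86.7 at P3 and 19.8 to 103.4 at P7. In all such sums a member under the floor counts as 2.82, so a sum need not be all measured signal. MiR-223, a myeloid miRNA, measured 3.73, 3.88, 5.28 and 4.31 at P3 and 1.50, 5.45, 2.88 and 3.63 at P7 (-0.93 ± 0.76, log2, SE, limma, adjusted p = 0.321). Of 12 neural markers 6 were above background on some array, with sums of 101.8 to 144.7 at P3 and 89.0 to 127.2 at P7, and the called miR-129-3p is among these. The part of other cell types in its decrease was not tested.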

How the data were processed

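Per the labels, total RNA of WT and Ercc1-/- MEFs was hybridized to 16 single-colour Agilent mouse miRNA arrays. The deposited spot intensity values were made by the authors with Agilent Feature Extraction (10.7.1.1 per the file headers), which subtracts background. Here the processed signals of non-outlier spots were averaged per probe, then per miRNA. A miRNA was above background where a share of at least 0.5 of the spots of any probe was well above background. A factor per array then equalized the average log2 signal of the 57 mouse miRNAs above background on all 16, values under a floor of 2.82 were raised to it, and log2 was taken. The floor was the median of the dimmest above-background signal per array, which ranged from 1.02 to 18.0. The depth of an array is its signal over background, and 8 arrays limit the precision.

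The 219 miRNAs above background on both arrays of a WT group were tested with limma 3.58.1 in R 4.3.3, with oxygen and replicate number as fixed blocks (residual degrees of freedom 4, prior 3.40), and p was adjusted by Benjamini-Hochberg over the 219. The replicate number coincides with the slide, which is why it was a block. The pairing it might give was checked: replicate differences correlated at r = 0.60 between the P3 groups, 0.82 between the P7 groups and -0.28 to -0.05 between P3 and P7. The script was tested on simulated data. Since the labels do not tie arrays to lines, p-values measure the spread between these samples, which may in part be technical.

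The rule for named miRNAs took up to 12 called miRNAs per direction with the largest change, if above background on at least 3 of 4 arrays of the higher passage and changed one way in all 4 pairs, and with under 5 calls in a direction its 5 lowest p instead. It added the 10 brightest at P3, the 3 with the smallest p in each other comparison, up to 4 members with the largest change in each list, any member of the let-7, miR-15/16, miR-322/miR-503, miR-29, miR-34, miR-221/miR-222, miR-143/miR-145 and senescence lists, and miR-210. The comparison, lists and tests were chosen with earlier results of these data known. Lists not described above (miR-290 cluster, miR-181, miR-130/miR-301, miR-23/27/24, miR-199/214, miR-26/101, Clcn5, H19/Igf2 and Sfmbt2 miRNAs) held no called miRNA other than miR-675-3p, and their medians lay between -0.61 and 0.59. Names were matched to RefSeq mature sequences for 188 of 219 miRNAs.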

Additional observations from a re-analysis of the deposited data

Results flagged for a closer look

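A passage difference that was unequal between the replicates was the main result singled out: 56 miRNAs differed between replicate 2 and replicate 1 in a test of the difference itself (limma, adjusted p under 0.05), 24 of the 61 examined by name among them.

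Within groups of 4 arrays, the highest or lowest value stood apart by Dixon's test at 95% in 4 of 126 cases, where chance gives about 1 in 20. These were the P7 value of miR-129-3p in 3% O2 replicate 1 (2.37), the P3 value of miR-720 in 20% O2 replicate 2 (13.86), the P7 value of miR-196a in 20% O2 replicate 1 (5.66) and the P3 value of miR-351 in 20% O2 replicate 2 (4.41).

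Probes for viral miRNAs, which the comparisons do not use, were above background on some WT arrays at both passages. Mcmv-miR-M23-1-5p and mcmv-miR-m88-1 were above background on all 8, with unscaled processed signals of 44.4 to 122 and 17.3 to 69.9, and mghv-miR-M1-2 on 7, with 11.8 to 18.5.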

How the results depend on the processing

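Counts of called miRNAs moved with most settings, and their direction less: of 165 values of the 5 called miRNAs under alternatives, 164 kept the direction and 76 were still called. Written as lower and higher at P7 against 5 and 0, the counts were 3 and 0 with no replicate block, 7 and 1 with the replicate as a random block, 1 and 2 with oxygen levels averaged within the replicate block, and 9 and 1 in a fit of 16 arrays with the replicate block. They were 29 and 4 without scaling, 27 and 12 with scaling to the mean over all miRNAs, 1 and 0 to the mean over miRNAs above background on all 8 WT arrays, 1 and 0 to the 75th percentile over miRNAs above background on all arrays, 3 and 0 to that over all miRNAs, and 2 and 0 with quantile scaling. They were 7 and 5 after normexp (none of the 5), 0 and 0 with the software's total signal, 6 and 1 in the authors' series table, 2 and 1 with the floor multiplied by 4, 0 and 0 with it multiplied by 0.25, and 0 and 0 with no filter or with the filter of all 8 WT arrays. They were 56 and 15 with array quality weights, 6 and 1 with a variance trend, 22 and 11 by the methods' t-test (2-fold, unadjusted p under 0.05), and 0 and 0 after its Benjamini-Hochberg adjustment. They were 0 and 0 on slide 1, 93 and 45 on slide 2, 0 and 0 in the 20% O2 arrays alone, and 33 and 13 in the 3% O2 arrays alone. Chosen after seeing the data, leaving out the 20% O2 pair of replicate 1 gave 48 and 19, and the passage by replicate term 85 and 42. Leaving out each array in turn gave 0 to 76 lower and 0 to 43 higher, the highest without the P7 array of 20% O2 replicate 1. The causes were not tested.

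In 20% O2, calls numbered 1 with no filter, 101 without the pair, and 0 to 113 leaving out an array. The 101 rest on 1 array of 20% O2 per passage and the 113 on 1 such array at P7. Their spread comes from the other arrays, so no conclusion is drawn from either count. In 3% O2, calls numbered 3 without scaling, 1 with the mean over all miRNAs, 10 after normexp, 46 without the pair, and 0 to 24 leaving out an array. Between oxygen levels there was 1 with no filter and 0 leaving out an array. Between genotypes there were 2 with a random block, the 75th percentile over all miRNAs or array weights, and 1 without scaling, with scaling to the mean over all miRNAs or over those on all 8 WT arrays, quantile scaling, either floor or the filter of all 8 arrays, and 0 leaving out an array. Leaving out an array, the P7 minus P3 difference in unscaled signal lay between -0.77 and 0.17, and that in miRNAs above background between -40.6 and 5.17.

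Among 61 named miRNAs, 16 changed sign in 40 of 2046 values. With the software's total signal, miR-129-3p turned to 0.85, miR-542-3p to 0.0048 and miR-181a to -0.11. On slide 1 alone, miR-21 turned to 0.13, miR-720 to 0.15, miR-195 to 0.021, miR-29b to 0.15 and miR-221 to 0.034. On slide 2 alone, miR-455* turned to -0.20, miR-497 to -0.26 and miR-335-5p to -0.25. In 20% O2 alone, miR-199a-5p turned to 0.096, miR-455* to -1.02 and miR-497 to -0.75. In 3% O2 alone, miR-720 turned to 0.16, miR-223 to 0.45, miR-351 to 0.15 and miR-335-5p to -0.00036. With the 75th percentile over all miRNAs, miR-720 and miR-199a-5p turned to 0.11 each, let-7b to 0.075 and miR-152 to 0.045, and with that over miRNAs above background on all arrays miR-720 turned to 0.018 and miR-199a-5p to 0.017. Array weights turned miR-720 to 0.048, quantile scaling let-7b to 0.13, no scaling miR-497 to -0.18, the lower floor miR-455* to -0.047, and normexp miR-223 to 0.095 and miR-351 to 0.13. Leaving out an array, miR-720 lay between -0.56 and 0.18, miR-455* between -0.25 and 0.69, miR-497 between -0.20 and 0.37, and miR-335-5p between -0.077 and 1.04. The replicate numbers did not pair the samples across passages by their deviations, and signal near the floor at P7 limits the sizes of miR-10a, miR-675-3p, miR-129-3p, miR-218 and miR-450a-5p. Replicate 2 signals under the dimmest one above background on their array also enter other sizes. They do so at P3 for miR-222, miR-188-5p and miR-680, and at P7 for miR-10b, miR-196b, miR-26b, miR-503 and miR-146b.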
